A study of Sus scrofa domesticus with 4 samples.

Results

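The genes described here are heat shock proteins and chaperones of the endoplasmic reticulum, with the stress-response factor ATF4, in cultured porcine anterior pituitary cells. The set holds HSP90B1, HSP90AA1, HSPA5, HSPB1, HSPB8 and ATF4. Their probes were found by accession: every probe whose RefSeq accession, taken without its version, belongs to one of the 6 genes in the annotation of Sscrofa11.1 was kept. This gave 27 probes of 5 genes, out of 43603 probes and 2459 named genes on the array. HSP90B1 had 8 probes, HSP90AA1 6, ATF4 6, HSPB8 5 and HSPB1 2. No probe carried an accession of HSPA5, the Hsp70 chaperone of the endoplasmic reticulum, which was therefore not analysed here.

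Both groups were primary cells of the anterior lobe from mature Large White x Polish Landrace gilts aged 7 to 8 months, taken from 4 animals in mid-luteal phase (days 10 to 12; 1 label calls these days a period of pregnancy). The trypsin-dispersed cells of both groups were precultured for 48 h with serum and then kept for 24 h without serum in medium with bacitracin. The treated cultures also received recombinant human adiponectin, a hormone of fat tissue, at 10 µg/ml, and the control cultures did not. Each of 4 two-colour arrays carried treated and control RNA. By the labels of the channels, arrays 1 and 3 had treated RNA in red (Cy5), whereas arrays 2 and 4 had it in green (Cy3). The labelling protocol reads differently, with Cy5 for treated RNA throughout, and that reading is given where it turns a result. The labels do not tie a gilt to an array or state whether an array's pair of RNAs is from a single animal. The p-values thus measure the spread between these arrays, which may be technical. The fit takes much of that spread from all probes together. The cultures were mixed, human protein was given to pig cells, and fewer cells of a type cannot be told apart from less RNA per cell. Of 14 marker genes of the hormone cells on the array, 13 could be tested, GH1, PRL, POMC, LHB, FSHB and TSHB among them. CGA could not be tested. All 13 were well above background in treated RNA on 4 arrays, but testing already required such signal in treated or control RNA on at least 3 arrays. Tested markers of other cells also reached 4 arrays: 3 of 3 of folliculostellate cells, 3 of 3 of lymphocytes, 4 of 5 of macrophages and 2 of 3 of fibroblasts and pericytes. This signal thus does not identify the cells.

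Heat shock proteins are chaperones: they bind unfolded proteins, keep them from clumping and help them fold. The cytosol and the endoplasmic reticulum have separate sets. HSP90AA1 is the inducible Hsp90 of the cytosol, and HSP90B1 (GRP94) is its counterpart in the endoplasmic reticulum, where hormones bound for secretion are folded. HSPB1 and HSPB8 are small heat shock proteins that hold unfolded clients without using ATP. ATF4 is a transcription factor of the integrated stress response, made in larger amounts when kinases that sense stress slow translation. Secretory cells such as those of the pituitary rely on this machinery for their load of peptide hormones.

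The question was whether adiponectin changed the transcripts of this folding machinery. No member probe passed the test: 0 of 25 tested probes had an adjusted p under 0.05 in limma, against 0 of 25918 probes in all (0%). The smallest adjusted p among them was 0.999866, which was also the smallest on the array. Without adjustment, 717 of the 25918 probes had a p under 0.05 in limma, fewer than the 1 in 20 that no effect gives on average. A model of separate channels likewise called 0 after adjustment. Values below are log2 ratios of treated over control RNA. The fitted ratio takes a dye term into account, the values of single arrays do not, and intervals are 95% intervals of the fit. Of the 25 tested probes, 24 had intervals that stayed inside 1.5-fold higher and 1.5-fold lower, and over all tested probes 99.8% did. Of the 25, 19 had a fitted ratio below 0 and 6 above (76% below, median -0.04), while over all tested probes 49.3% were below 0 with a median of 0.00124. These 25 probes repeat 5 genes and are not independent: HSP90B1 gave 8 and ATF4 5 of those below 0. By the probe that stands for each gene, HSP90B1, HSPB1 and ATF4 were below 0 and HSP90AA1 and HSPB8 above. Over all named tested genes, 46.4% were below 0. The contrast between member probes and all probes was not stable. Apart from median centring, the settings with 4 arrays and the channel labels kept it, at 68% to 78.3% of members against 47.5% to 50.6% of all probes. Several of these return the main ratios by design. Without array 1, 17 of 24 members were below 0 (70.8%), against 50.7% of all probes, and without array 4, 18 of 23 (78.3%), against 52.8%. Other settings lost it. With median centring in place of loess, 9 of 25 member probes were below 0 (36%), against 34.1% of all probes, and HSP90AA1, HSPB1 and ATF4 had most of their probes above 0. Without array 2, 10 of 23 members were below 0 (43.5%), against 46.5% of all probes, and without array 3, 12 of 24 (50%), against 48.7%. The members' signals lay far above background, with all 27 probes well above it in both channels on 4 arrays.

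**Figure D1:**
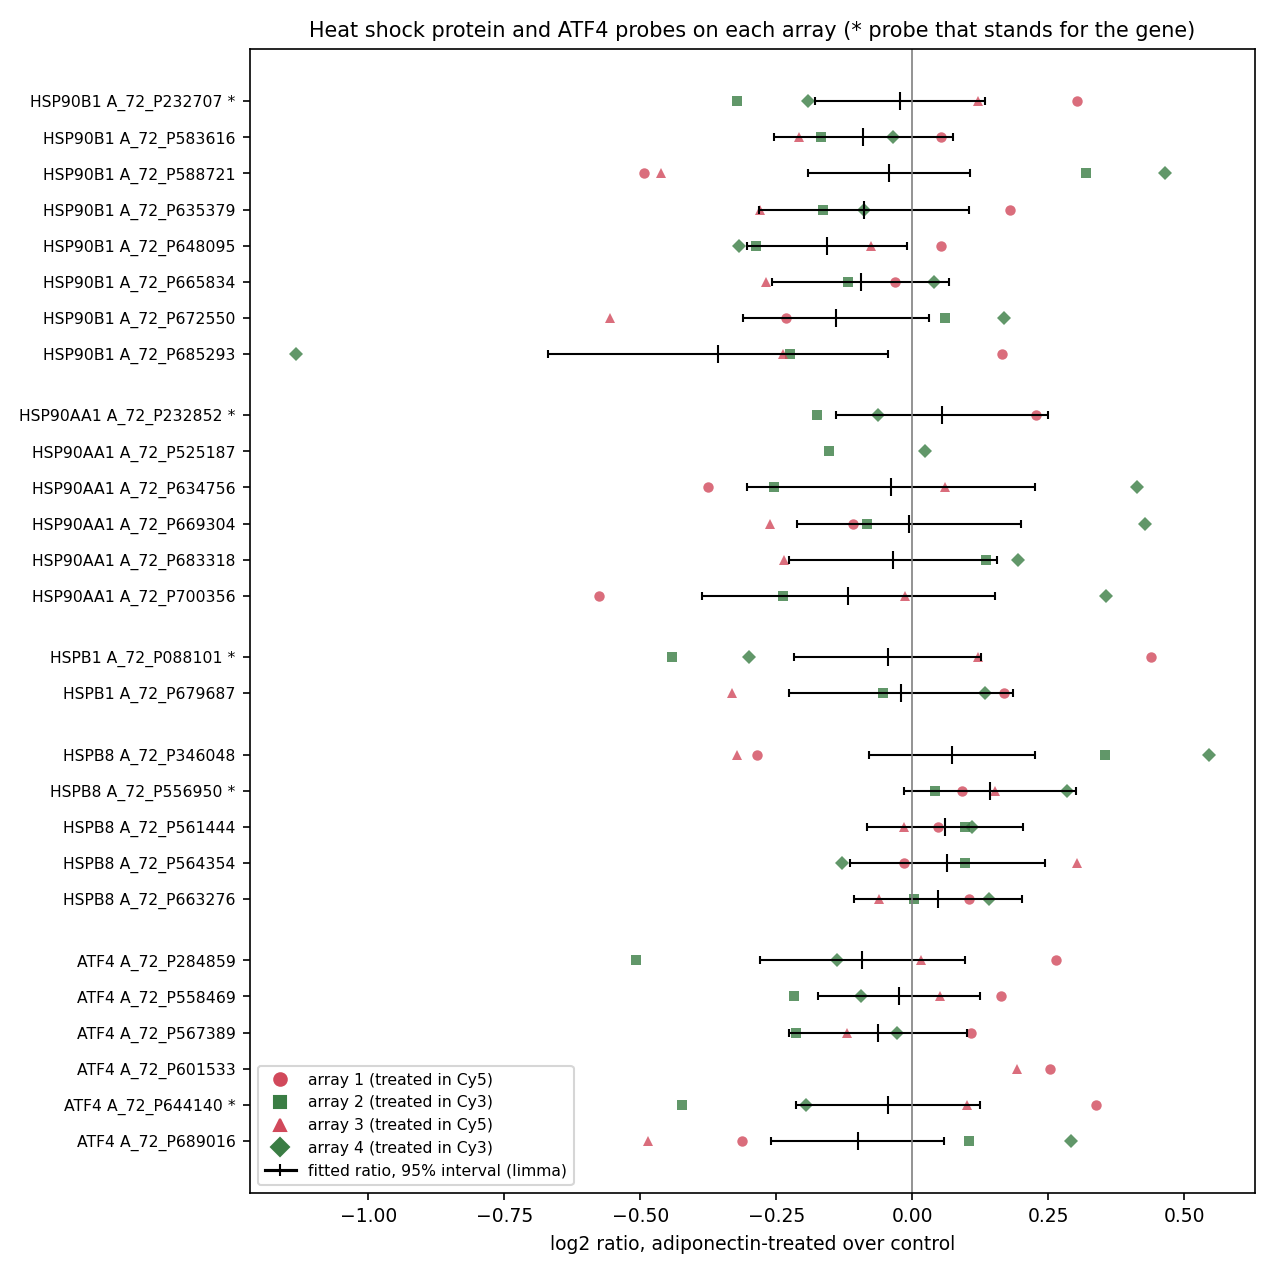
Each line is 1 probe, with its log2 ratio of treated over control RNA on arrays 1 to 4 (symbols; red where the treated RNA was in Cy5, green where it was in Cy3) and the fitted ratio with its 95% interval in black; 2 probes had too few arrays for a fit. The 5 HSPB8 probes have fitted ratios above 0 and the 8 HSP90B1 probes below 0, and probes such as A_72_P588721 split by dye.

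The endoplasmic chaperone HSP90B1 had fitted ratios below 0 for all 8 of its probes, from -0.36 to -0.02 with a median of -0.09. With median centring 6 of 8 were below 0, and with spots of uneven background kept 7 of 8. Leaving out array 3 gave 6 of 8, and leaving out array 2 gave 7 of 8. Such agreement was common: 14 of 46 named genes with at least 8 tested probes had them all on 1 side of 0 (30.4%). The brightest probe of HSP90B1, A_72_P232707, had ratios of 0.30, -0.32, 0.12 and -0.19 on arrays 1 to 4. It was above 0 on both arrays with treated RNA in Cy5 and below 0 on both with treated RNA in Cy3, and its fitted ratio was -0.02 (0.985-fold, -0.18 to 0.13). Among the 8 probes this one lay nearest to 0.

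The intervals of 2 HSP90B1 probes left out 0. For A_72_P648095 the arrays gave 0.05, -0.29, -0.07 and -0.32, with a fitted ratio of -0.16 (-0.30 to -0.01). Array 1 was the one above 0. For A_72_P685293 they gave 0.17, -0.23, -0.24 and -1.13, with a fitted ratio of -0.36 (-0.67 to -0.05). Array 4 stood low for this probe: its background-subtracted signals there were 3448 in treated and 5712 in control RNA, against 8394 to 16981 on the other arrays. The next lowest HSP90B1 probe on array 4 was A_72_P648095 at -0.32. These were also the member probes with an unadjusted p under 0.05, 2 of 25 (8%), and over all probes 1.72% had such a p with a lower value. Without array 4 the fitted ratio of A_72_P685293 was -0.13, and without array 2 it was -0.58 and passed the threshold (adjusted p = 2.29e-10 in limma), as did 2.86% of all probes in that fit. In that fit array 4 alone carries its dye orientation. The probes that stand for HSP90B1, HSPB1, HSPB8 and ATF4 all had the same standard error there, 0.077. Its p-values thus rest on a spread shared between probes, not on each probe's own, and no conclusion is drawn from them. Averaged over all 8 probes, HSP90B1 had ratios of -0.0003 on array 1, -0.11 on array 2, -0.25 on array 3 and -0.14 on array 4. Its mean fitted ratio was -0.12, or -0.09 without A_72_P685293, a choice made after that value was seen. Without array 3 the mean over all 8 probes was -0.06, and without array 1 it was -0.19.

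HSP90AA1, the inducible Hsp90 of the cytosol, had probes on both sides of 0. The brightest tested probe, A_72_P232852, gave 0.23, -0.17 and -0.06 on arrays 1, 2 and 4 and had no value on array 3, where its local background was uneven. Its fitted ratio from these 3 arrays was 0.05 (1.04-fold, -0.14 to 0.25), and without the dye term it was -0.003. The other 4 tested probes had fitted ratios from -0.12 to -0.01, so the mean over probes was -0.03 and opposed the brightest probe. With median centring 4 of the 5 tested probes were above 0. Over the probes that could still be fitted, the mean was 0.003 when array 1 was left out and 0.09 when array 2 was. Leaving out array 3 gave -0.08, and leaving out array 4 gave -0.20.

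Within HSP90AA1, the probes differed in their order over the arrays. The 3 probes measured on all arrays, A_72_P634756, A_72_P669304 and A_72_P700356, had their highest ratio on array 4, between 0.36 and 0.43. On array 1 they had -0.38, -0.11 and -0.58. Their means on arrays 1 to 4 were -0.35, -0.19, -0.07 and 0.40, while A_72_P232852 ran the other way between arrays 1 and 4. For A_72_P700356 the fitted ratio was -0.12 (-0.39 to 0.15). Without array 4 it was -0.27 and passed the threshold (adjusted p = 0.0233 in limma), as did 3.31% of all probes in that fit, and without array 1 or 2 it was 0.02 and 0.03. The fit without array 4 also gave the same standard error, 0.077, to the probes that stand for HSP90B1, HSPB1, HSPB8 and ATF4. No conclusion is drawn from its p-values, which do not weigh each probe's own spread. A_72_P683318 gave 0.14, -0.24 and 0.19 on arrays 2, 3 and 4. A_72_P525187 had values on arrays 2 and 4 alone (-0.15 and 0.02) and was not tested. Hsp90 genes of the cytosol are close paralogs and the probe sequences were not used here, so which of them a probe measures is uncertain.

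HSPB1 (Hsp27), a small heat shock protein that also guards the actin skeleton, had 2 probes. The brighter, A_72_P088101, gave 0.44, -0.44, 0.12 and -0.30 on arrays 1 to 4, above 0 wherever the treated RNA was red and below 0 wherever it was green. Its fitted ratio was -0.05 (0.969-fold, -0.22 to 0.13), and 0.05 with median centring. The second, A_72_P679687, gave 0.17, -0.05, -0.33 and 0.13, with a fitted ratio of -0.02 (-0.23 to 0.19). The sign of its single arrays did not follow the dye. On arrays 3 and 4 the probes lay on opposite sides of 0. With median centring both fitted ratios were above 0.

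HSPB8 (Hsp22), which works with the co-chaperone BAG3 to pass damaged proteins to autophagy, was the one member with all fitted ratios above 0. Its brightest probe, A_72_P556950, gave 0.09, 0.04, 0.15 and 0.28 on arrays 1 to 4, all above 0 in both dye orientations. It is the one member probe with a value on 4 arrays and 1 sign on all of them. The normalised log2 level was 15.66, 15.83, 15.38 and 15.22 in treated and 15.57, 15.79, 15.23 and 14.93 in control RNA. The levels of treated and control RNA overlapped across arrays. The fitted ratio was 0.14 (1.10-fold, -0.02 to 0.30), not called (adjusted p = 0.999866 in limma).

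The other 4 HSPB8 probes had smaller fitted ratios, from 0.05 to 0.07. A_72_P561444 gave 0.05, 0.10, -0.02 and 0.11, and A_72_P663276 gave 0.11, 0.003, -0.06 and 0.14. Both had array 3 as the one value below 0. A_72_P564354 gave -0.02, 0.10, 0.30 and -0.13, and its sign mixed within both orientations. A_72_P346048 gave -0.29, 0.35, -0.32 and 0.55, below 0 on both arrays with red treated RNA. Over the 5 probes the mean was 0.08, with an SD between probes of 0.04. All 5 fitted ratios were above 0 in each of the 10 other settings with 4 arrays that keep the channel labels. Several of these could not change the sign. For these probes, leaving out the dye term, a looser or stricter filter on dim probes and separate channels return the ratios of the main fit. The deposited matrix repeats the scanner's ratio (mean 0.0859 in both). Without array 3, 4 of 5 were above 0. In the array's named genes with at least 5 tested probes, 60 of 153 had them all on 1 side of 0 (39.2%), and of the 4 members with as many, HSP90B1, HSPB8 and ATF4 did.

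**Figure D2:**
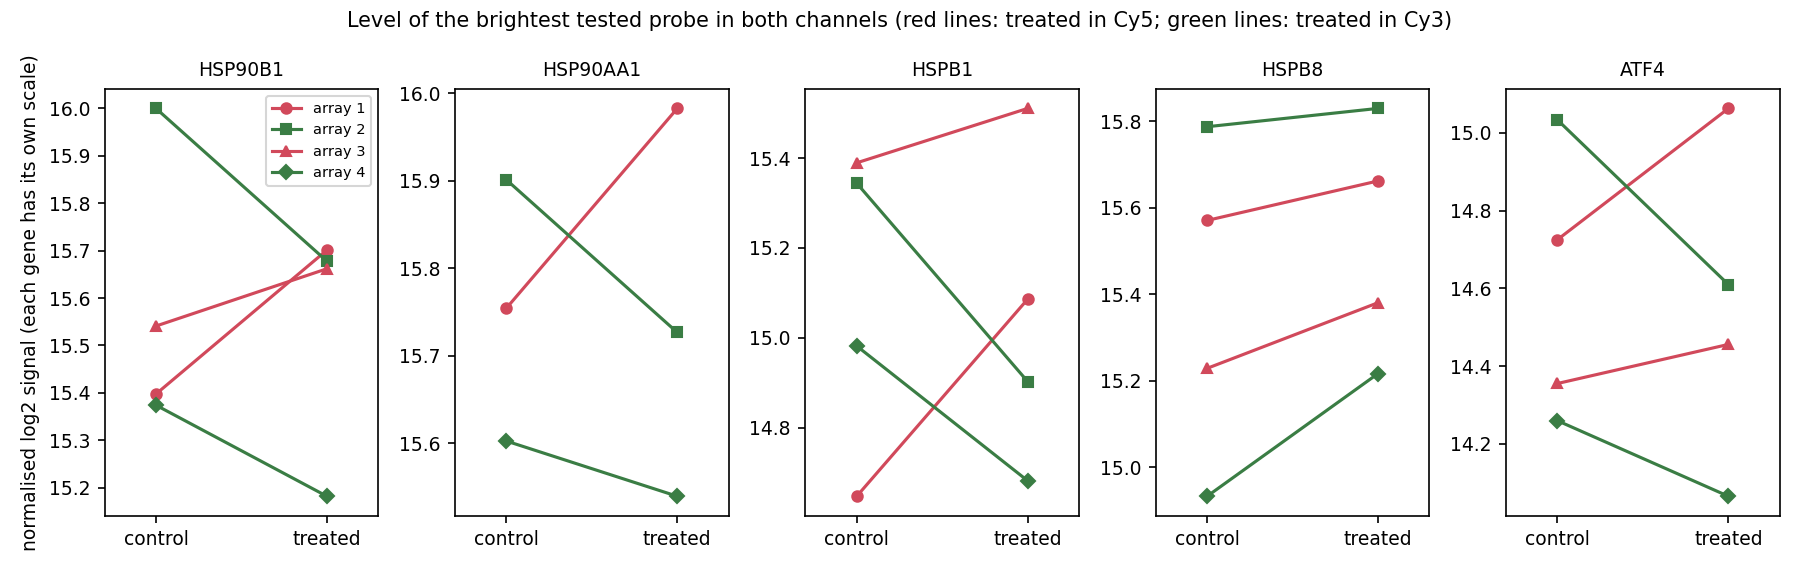
Normalised log2 signal of each gene's brightest tested probe in control and treated RNA, joined for each array (red lines: treated RNA in Cy5; green lines: in Cy3; the vertical scale differs between genes). HSPB8 has all 4 lines rising, by 0.04 to 0.28, whereas in HSP90B1, HSPB1 and ATF4 the red lines rise and the green lines fall.

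In the difference between HSPB8 and HSP90B1, a constant added to an array cancels, so the centring of the arrays could hardly move it. As means over their probes, HSPB8 minus HSP90B1 was -0.01, 0.23, 0.26 and 0.33 on arrays 1 to 4, with a mean of 0.20. Array 1 showed almost no gap between these genes. Without A_72_P685293, the HSP90B1 probe that was low on array 4, the gaps were 0.01, 0.22, 0.26 and 0.18, with a mean of 0.17. With all probes, under the other settings with 4 arrays that follow the channel labels, the mean lay between 0.20 and 0.21. That narrow range is no support. Leaving out the dye term, changing the filter on dim probes and separate channels return the main value by design. With 1 array left out the mean lay between 0.13 and 0.27. This pair was chosen after the values were seen, so no test is given. If Cy5 held the treated RNA throughout, the difference was -0.08.

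ATF4, the stress-response transcription factor, had 5 tested probes with fitted ratios from -0.10 to -0.02 and a mean of -0.06, all below 0 with 4 arrays and loess. With median centring 3 of 5 were above 0. Without array 2, 3 of 5 were above 0 and the mean was -0.010, and without array 3, 2 of 5 were above 0 and the mean was -0.015. Without array 1 the mean was -0.11, and without array 4 it was -0.12. The probe that stands for it, A_72_P644140, gave 0.34, -0.42, 0.10 and -0.19 on arrays 1 to 4, again with the sign of the dye orientation. Its fitted ratio was -0.04 (0.969-fold, -0.21 to 0.12). A_72_P284859 was close in its arrays (0.26, -0.51, 0.02 and -0.14), while A_72_P689016 was opposed (-0.31, 0.10, -0.49 and 0.29). The fitted ratios of these 2 probes were -0.09 (-0.28 to 0.10) and -0.10 (-0.26 to 0.06), and their dye terms 0.23 and -0.30. The brightest ATF4 probe of all, A_72_P601533, had an uneven background on arrays 2 and 4 and was not tested. With those spots kept it gave 0.20, -0.11, 0.11 and -0.28, with a mean of -0.02. Much of ATF4's control is known to lie in translation, which these RNA values do not measure.

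The dye term of the fit is the mean log2 ratio of red over green. It was called for 4 of the 25 tested member probes (16%), against 1607 of 25918 in all (6.2%), each in a different gene. It was -0.44 for A_72_P588721 of HSP90B1 (-0.58 to -0.29, adjusted p = 0.0149 in limma) and -0.38 for A_72_P346048 of HSPB8 (-0.53 to -0.22, adjusted p = 0.021). For A_72_P088101 of HSPB1 it was 0.33 (0.15 to 0.50, adjusted p = 0.0436 in limma), and for A_72_P689016 of ATF4 -0.30 (-0.46 to -0.14, adjusted p = 0.0443). Probes of 1 gene thus had dye terms of both signs: HSP90B1 ran from -0.44 to 0.32 and ATF4 from -0.30 to 0.26. The SD between probes of HSP90B1 was 0.25 for the dye term and 0.10 for the adiponectin term. For HSPB8 these were 0.17 and 0.04, and for ATF4 0.23 and 0.03. Over all tested probes the SD was 0.17 for the dye term and 0.08 for the adiponectin term, so the dye term had the wider spread across the array too.

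**Figure D3:**
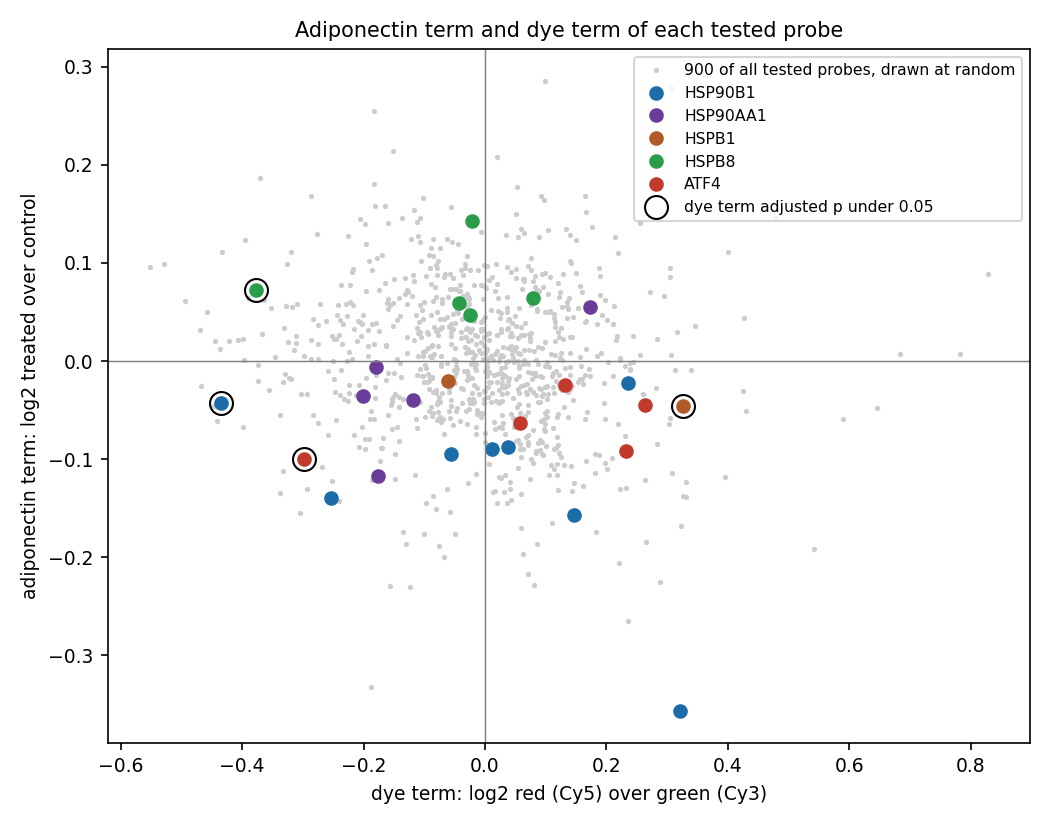
Adiponectin term (vertical, log2 treated over control) against dye term (horizontal, log2 red over green) for the 25 tested member probes in colour and a random draw of all tested probes in grey; rings mark the 4 member probes with a called dye term. The members spread more along the dye axis than along the adiponectin axis, as all tested probes do (SD 0.17 and 0.08), and the HSPB8 probes lie above 0 on the adiponectin axis and those of HSP90B1 and ATF4 below.

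Were Cy5 the treated RNA on all arrays, as the labelling protocol reads, the dye term would be the ratio of treated over control. The probes that stand for HSPB1, ATF4 and HSP90B1 would then have ratios of 0.33, 0.26 and 0.23 and would be called (adjusted p = 0.0277, 0.0488 and 0.0488 in limma). The probes that stand for HSPB8 and HSP90AA1 would have -0.02 and 0.16 (adjusted p = 0.889 and 0.203 in limma). In that reading 6 of 25 member probes passed (24%), against 2331 of 25918 in all (8.99%). The other 3 were lower: A_72_P588721 of HSP90B1 had -0.44, A_72_P346048 of HSPB8 -0.38 and A_72_P689016 of ATF4 -0.30 (adjusted p = 0.00737, 0.0133 and 0.0368 in limma). HSP90B1 and ATF4 thus had called probes of both signs. The directions given here rest on the channel labels, which the deposited matrix of ratios follows in sign.

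**Figure D4:**
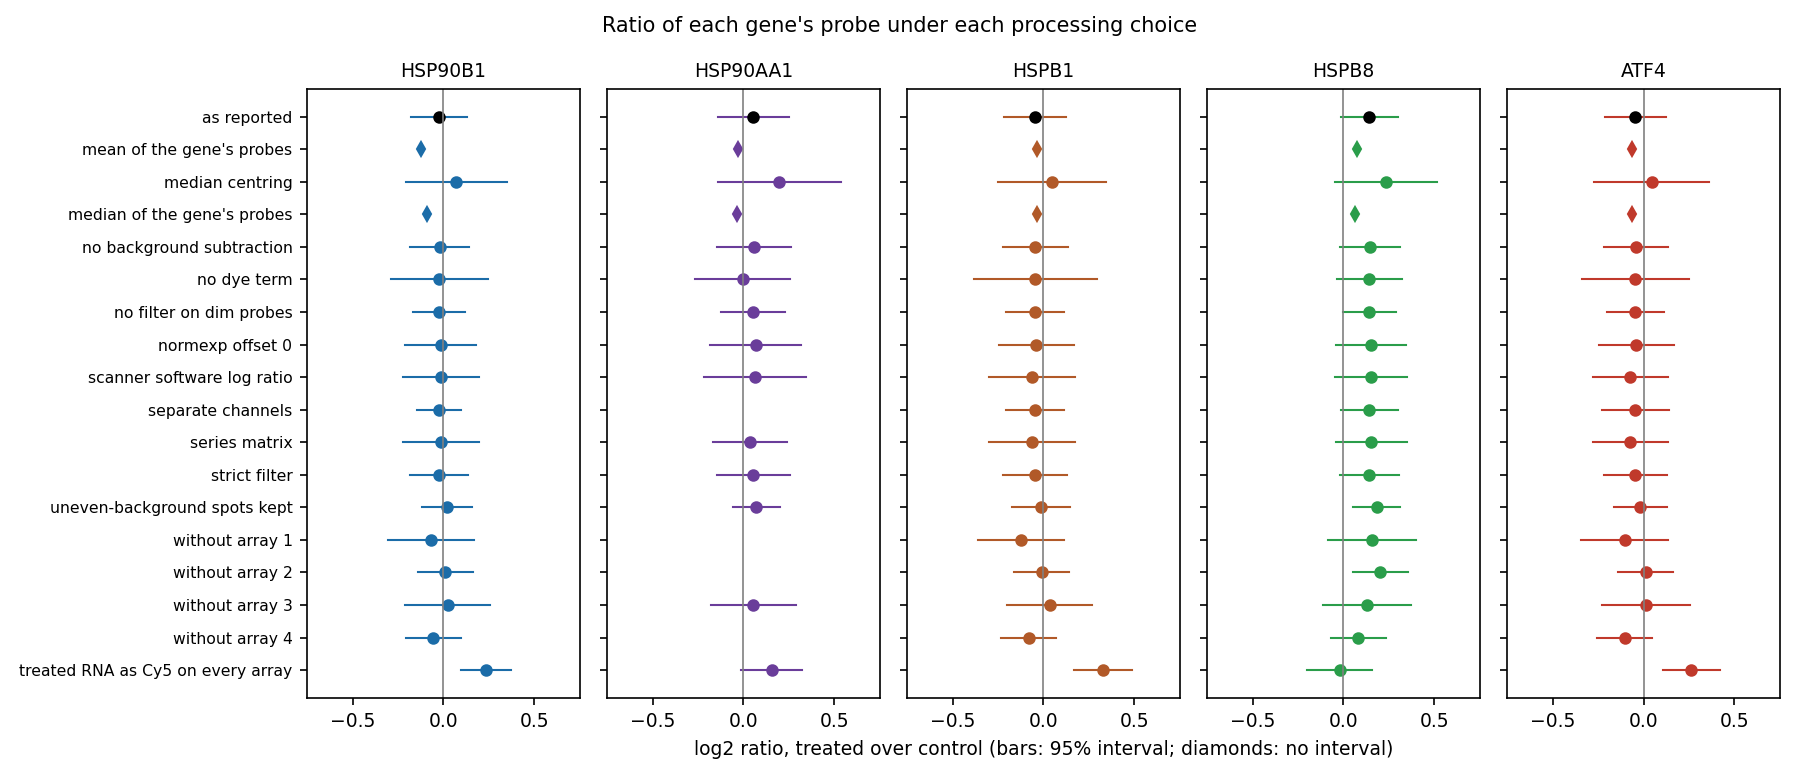
Log2 ratio of the probe that stands for each gene (columns) under each processing choice (lines), with 95% intervals as bars; diamonds are means or medians over a gene's probes and have no interval. HSPB8 lies between 0.06 and 0.24 in every line but the last, where Cy5 is taken as treated RNA on all arrays, and HSP90B1, HSPB1 and ATF4 change sign with median centring and in that last line.

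Other genes of the folding and stress machinery were given as counts. Named probes covered 8 of 54 listed cytosolic and mitochondrial chaperones, 7 of 49 listed genes of the endoplasmic reticulum and 11 of 41 listed partners and targets of ATF4. Over all 1956 named tested genes the median was 0.01, with 46.4% below 0, and 0 genes of these lists were called. Of the 8 tested cytosolic and mitochondrial chaperones and their partners, 4 were higher and 4 lower, with a median of 0.01. HSPE1, the small mitochondrial chaperonin, had 0.08 (4 of 4 probes above 0), the Hsp90 co-chaperone PTGES3 0.06 and the Hsp70 gene HSPA1L 0.05. On the lower side were the inducible HSP70.2 at -0.12, with its other probe at 0.01, HSPA6 at -0.08 and the kinase co-chaperone CDC37 at -0.02.

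Of the 6 tested genes of the endoplasmic reticulum, 3 were higher and 3 lower, with a median of -0.01. ERO1A, the oxidase that drives disulfide bond formation, had the lowest ratio, -0.18 (-0.38 to 0.02), with 0.09, -0.18, 0.07 and -0.69 on arrays 1 to 4. Array 4 was the lowest, and both of its probes had fitted ratios below 0. SELENOS and SELENOK, selenoproteins of protein disposal, had -0.06 and 0.01. The lectin chaperone CALR had -0.02 and ATF6B, a sensor of the unfolded protein response, 0.03.

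Among 11 tested partners and targets of ATF4, 7 were lower and 4 higher, with a median of -0.02. The lowest was EIF2AK2, a kinase that acts upstream of ATF4 and is induced by interferon, at -0.17 (-0.31 to -0.03), below 0 on all 4 arrays. FGF21 had -0.11 and CTH, an enzyme of cysteine synthesis, -0.09. Higher were FOS at 0.07, VEGFA at 0.06 (its other probe at -0.05) and PHGDH, the first enzyme of serine synthesis, at 0.02. The probe that stands for ATF4, at -0.04, lay within the range of this list, -0.17 to 0.14. The upper end was GDF15, with values on 3 arrays alone (0.52, -0.41 and -0.04 on arrays 1, 2 and 4).

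Markers of cell types were read beside the members. Of the 13 tested hormone-cell markers, 9 were lower and 4 higher, with a median of -0.07 and a range from -0.17 to 0.08. Their mean ratios on arrays 1 to 4 were 0.02, -0.03, -0.14 and -0.02, with array 3 lowest. Array 3 was also lowest for the markers of folliculostellate cells (-0.15) and macrophages (-0.19) and for the mean of HSP90B1. The macrophage means were -0.13, 0.12, -0.19 and 0.22, below 0 wherever the treated RNA was red and above 0 wherever it was green. Array 3 was not lowest for endothelial cells (0.02), fibroblasts and pericytes (0.01), posterior lobe or nervous tissue (0.02) or red blood cells (0.08). For lymphocytes it was the highest (0.02). The tested markers of macrophages (5), endothelial cells (3), fibroblasts and pericytes (3), lymphocytes (3) and posterior lobe or nervous tissue (2) had medians from -0.003 to 0.05. The 3 tested markers of folliculostellate cells had a median of -0.07, and the 1 red blood cell marker 0.04. The part of cell composition in the members' values was not tested.

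The genes whose 4 array ratios lay nearest to a member were named by root mean square distance, over 1372 named genes with a mean absolute ratio of at least 0.1. For HSPB8 these were PRDX5 (distance 0.05 log2; 0.003, 0.04, 0.11 and 0.26 on arrays 1 to 4) and TKT (0.06). HSP90B1 was nearest to ABO (0.03) and PRMT5 (0.04), ATF4 to PRMT5 (0.04) and TUBB (0.05), and HSPB1 to NNAT (0.06) and TUBB (0.06). HSP90AA1, over 3 arrays, was nearest to CHD1L (0.01) and ACY1 (0.02). The distances use values of single arrays, which hold the dye term. ABO, PRMT5, TUBB, NNAT, CHD1L and ACY1 were above 0 on arrays 1 and 3 and below 0 on arrays 2 and 4. Their fitted ratios ran from -0.05 to 0.06. PRDX5 and TKT were above 0 on all 4 arrays. Nearness thus does not separate the dye from a response to adiponectin.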

How the data were processed

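Gene expression was measured in 4 two-colour arrays of design 026440, on 1 slide. Per the file headers, Agilent Feature Extraction 10.7.3.1 gave the linear intensity of each spot and its red over green ratio as a log10 value. A deposited matrix gives log2 ratios by probe. For 99.986% to 99.991% of probes it lay within 0.01 of the scanner's processed ratio, signed as treated over control by the channel labels, and its medians were -0.04, 0.08, 0.04 and -0.05.

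Median signals were corrected with normexp (offset 50) and normalized by loess within arrays, with control spots at weight 0. Outlier-flagged spots (29 to 45 of 43803 per array) and spots of uneven local background (939 to 1350) were left out, and 0 spots were saturated. Repeat spots were averaged by probe. Tested probes had values, and signal well above background in treated or in control RNA, on at least 3 arrays (25097 to 29738 probes were well above it per channel). The number of arrays limits the precision. limma 3.58.1 in R 4.3.3 fitted dye and treatment terms across 25918 probes, two-sided, with Benjamini-Hochberg adjustment, a threshold of 0.05 and 2 residual degrees of freedom with 4 arrays. The spread that limma shares between probes counted for 6.37 degrees of freedom in this fit, so its p-values and intervals rest largely on that shared spread. Levels were scaled between arrays (Aquantile). Of 43603 probes, 5578 were named by accession. The brightest tested probe stands for a gene.

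Named were every member probe, the 3 highest and 3 lowest genes of each pathway list with 4 arrays, listed genes with an unadjusted p under 0.05, and the 2 genes most like each member. Members, lists and alternatives were chosen with earlier results of these data known. Planned comparisons of protein and promoter sequences were not made here.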

Additional observations from a re-analysis of the deposited data

Results flagged for a closer look

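Of 45 values with 4 arrays that were examined, 28 of them of members (single probes and gene means), 2 had a single array apart from the rest, and chance gives about 2.25 at 1 in 20. HSPA6, an Hsp70 gene, had -0.55 on array 4, against 0.03 to 0.13 elsewhere. FGF21 had 0.11 on array 1, against -0.18 on each of the others. Both are in the pathway lists, and 0 members stood apart in this way. The cause was not tested.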

How the results depend on the processing

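The count of 0 called probes remained 0 in 11 other settings with 4 arrays, and was 2331 when Cy5 stood for treated RNA throughout. With 1 array left out it ran from 0 to 832: leaving out array 2 gave 725, array 4 gave 832, array 3 gave 1 and array 1 gave 0. These fits keep 1 array in 1 dye orientation. Without array 2, and likewise without array 4, the probes that stand for HSP90B1, HSPB1, HSPB8 and ATF4 shared the same standard error (0.077). The calls of those fits thus do not weigh each probe's own spread, and no conclusion is drawn from them. Without array 1 or 3 the standard errors differed little between these probes, from 0.107 to 0.110. Those fits too weigh each probe's own spread little. Median centring turned HSP90B1 to 0.071, HSPB1 to 0.048 and ATF4 to 0.045. With Cy5 as treated RNA the ratios were 0.23 for HSP90B1, 0.33 for HSPB1, 0.26 for ATF4 and -0.021 for HSPB8. HSP90B1 was 0.019 with uneven spots kept. HSP90AA1 was -0.029 as the mean and -0.036 as the median of its probes, and -0.0031 with no dye term. With arrays left out, the probe that stands for HSP90B1 ranged from -0.068 to 0.023 and ATF4 from -0.10 to 0.014 (both above 0 without array 2 or 3), HSPB1 from -0.12 to 0.034 (above 0 without array 3) and HSPB8 from 0.08 to 0.20. The probe that stands for HSP90AA1 could be fitted only without array 3 (0.05). As means over probes, the fits with 1 array left out ranged from -0.19 to -0.06 for HSP90B1, -0.20 to 0.09 for HSP90AA1, -0.14 to 0.07 for HSPB1, 0.06 to 0.09 for HSPB8 and -0.12 to -0.01 for ATF4. The cause of these changes was not tested. The fit is already paired within arrays. The model of separate channels keeps that pairing as a correlation within spots, and its count was 0. No fit without the pairing was made.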
